A study of Mus musculus with 18 samples.

Results

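Neuregulin and ErbB growth signalling is described here through 6 genes, the ligand genes Nrg1 and Hbegf and the receptor genes Egfr, Erbb2, Erbb3 and Erbb4, which were taken by name from 35843 measured genes. Neuregulin 1 is a growth factor that heart endothelium and endocardium are known to release, and heparin-binding EGF-like growth factor, the product of Hbegf, is shed from the cell surface and binds EGFR and ErbB4. ErbB3 and ErbB4 bind neuregulin, whereas ErbB2 has no known ligand of its own and signals by pairing with the others. In the newborn mouse heart this pathway is known for supporting cardiomyocyte (CM) division, which ends in the weeks after birth.

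Single-cell RNA-sequencing on ICELL8 nanowell chips covered 18 samples of Myh6/Esr1-Tomato hearts, each sample being 1 chip. This strain carries a tamoxifen-dependent Cre driven by the Myh6 promoter, which is active in CMs, and a Tomato reporter. The paper reports tamoxifen treatment between P1 and P4 for its single-cell work with this strain on P4 to P28 hearts. Time since that treatment therefore differs with age, and its part in the stage changes was not tested. Hearts labelled wildtype carry the same reporter and received no hairpin. Wild-type hearts in this sense were taken at P4 (2 samples), P7 (2), P14 (2) and P28 (6), and a further 6 chips at P28 held hearts that had received lentivirus at P1 with a hairpin against Jun (shJun) or a non-targeting hairpin (shNT). Hearts at P4 and P7 were digested with a cardiomyocyte isolation kit and hearts at P14 and P28 by Langendorff perfusion, so that a difference between P7 and P14 cannot be told apart from the change of digestion. At P28 CMs and non-cardiomyocytes were loaded on separate chips (replicates 1, 3 and 5 and replicates 2, 4 and 6), and at P4 and P7 both chips name the same animals, so the spread there may be that of chips.

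A total of 12938 of 15993 wild-type wells and 7058 of 7482 hairpin wells passed the filters. Before any filter, over all wells and genes, chip totals ran from 11161784 to 133264535 UMIs (unique molecular identifiers, each standing for 1 captured transcript). Clusters were named only from marker lists, as CM-like, endothelial-like, fibroblast-like, macrophage-like and smaller classes, and UMIs were summed per class and sample where at least 20 cells were found. CM markers summed to between 41790 and 83140 UMIs per 1000000 UMIs of the sum (CPM) in CM-like sums of wild-type hearts. At P4, 203 of 311 CM-like cells formed a cluster with the atrial genes Sln, Myl7 and Nppa among its leading genes, and 108 a cluster led by Ttn and Mhrt, whereas no later CM-like cluster had 3 atrial genes of the 5 looked for (Sln, Myl7, Nppa, Sbk2, Mybphl) among its 10 leading genes. Also, 2 CM-like clusters of P28 had leading genes of other cells, 97 cells with the immune genes Rgs1, Ccl4 and Cxcl2 and 94 cells with Pdgfrb and Col8a1, in which the epicardial marker list stood higher than that of CMs. Calls in CM-like cells are therefore also given without these clusters, as alternatives chosen after the data were seen. RNA of CMs was also found in the other classes, where Myh6, the alpha myosin heavy chain of CMs, stood at 6.6% to 42.2% of the CM-like level of the same sample in endothelial-like, fibroblast-like and macrophage-like sums of wild-type hearts. Erythroid markers, mostly haemoglobin genes, summed to 236 to 373 CPM at P4 and 4965 to 36860 CPM at P28 in CM-like sums, and to 799 to 809 CPM and 19560 to 226400 CPM in endothelial-like sums, and their part in the stage changes was not tested. Of the 5010 well barcodes, 4683 occurred on at least 2 chips, since each chip uses the same barcode set.

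Detection of the 6 genes was sparse. Nrg1 (chromosome 8, 31814551 to 32884029, minus strand, GRCm38) gave a UMI in 0.485% of all cells, Hbegf (chromosome 18, 36504927 to 36515805, minus strand) in 15.1% and Egfr (chromosome 11, 16752203 to 16918158, plus strand) in 8.03%. Erbb2 (chromosome 11, 98412470 to 98437716, plus strand) was found in 3.63%, Erbb3 (chromosome 10, 128567523 to 128589652, minus strand) in 2.28% and Erbb4 (chromosome 1, 68032186 to 69108059, minus strand) in 4.26%. A cell with a UMI typically held 1 to 3 of them, yet single cells held up to 123 UMIs of Nrg1, 256 of Erbb2 and 490 of Egfr. A level in CPM can therefore rest on 1 cell, and the share of cells with a UMI is given beside it.

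The ligand and receptor genes were spread over different classes of the wild-type heart. Endothelial-like cells, 21.7% of cells, held 74.2% of the 325 Nrg1 UMIs, and fibroblast-like cells, 18.5% of cells, held 70.0% of the 5114 Egfr UMIs. CM-like cells, 20.4% of cells, held 52.3% of Erbb4, 59.8% of Erbb3, 34.1% of Erbb2 and 31.0% of Hbegf UMIs. For Erbb2, fibroblast-like and endothelial-like cells held 28.3% and 22.6% of UMIs. An Erbb2 UMI was found in 71 CM-like, 88 fibroblast-like and 74 endothelial-like cells. Mural-like cells, the smooth muscle and pericyte class, were 3.8% of cells and held 16.9% of Hbegf UMIs.

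**Figure D1:**
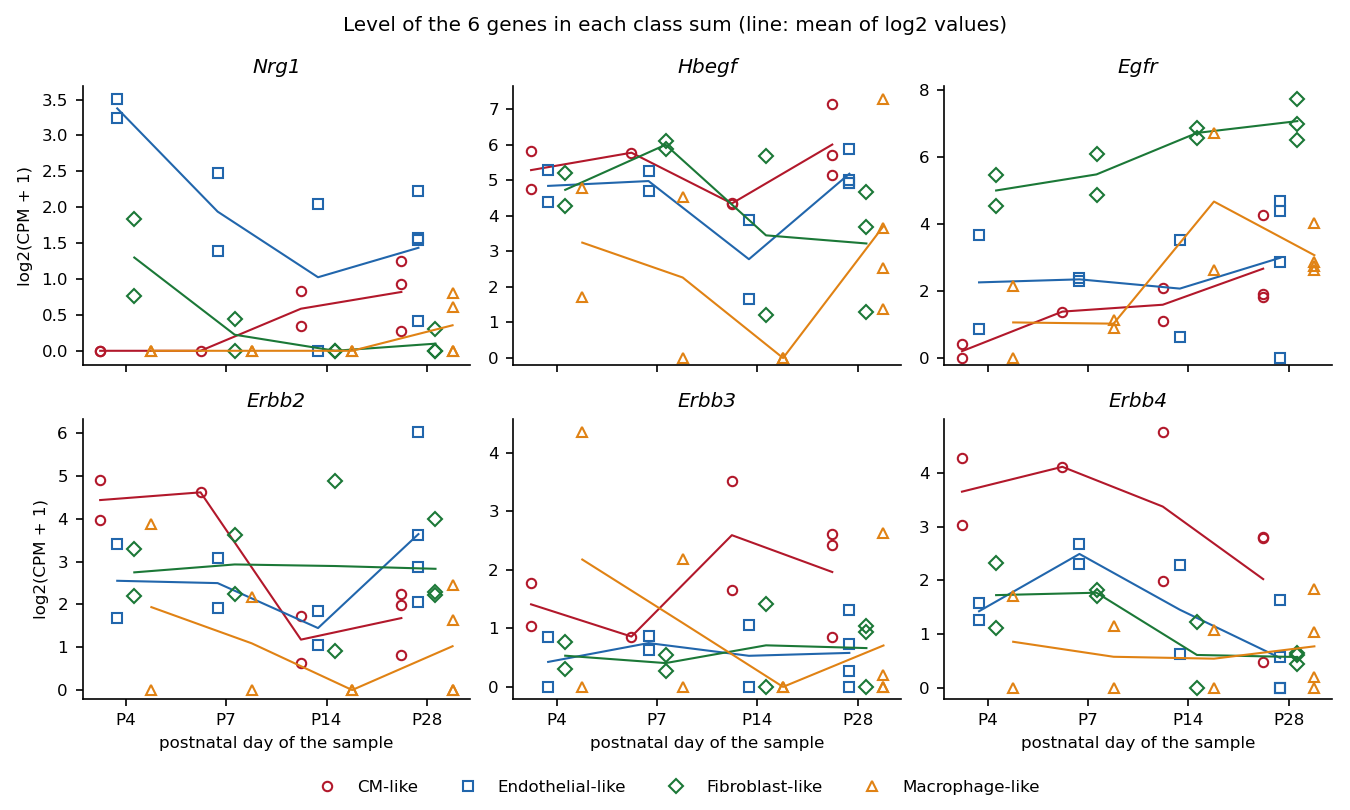
Level of each gene as log2(CPM + 1) against postnatal stage, with 1 symbol for each class sum of a wild-type sample, colours for the 4 main classes and lines through the mean of the log2 values. Fibroblast-like sums lie highest for Egfr at P4, P7 and P28, and CM-like sums of Erbb2 lie lower at P14 and P28 than at P4 and P7.

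Nrg1, the neuregulin gene, was sparse in every class and had its largest mean over wild-type sums in endothelial-like cells (3.61 ± 3.4 CPM, SD, n = 10), against 0.443 ± 0.516 CPM in CM-like (n = 8), 0.429 ± 0.840 CPM in fibroblast-like (n = 9) and 0.128 ± 0.275 CPM in macrophage-like sums (n = 10). In endothelial-like sums it stood at 8.45 and 10.4 CPM at P4, 1.63 and 4.58 CPM at P7, 3.14 and 0 CPM at P14 and 3.66, 0.333, 1.91 and 1.96 CPM at P28 (replicates 1, 2, 4 and 6). Both P4 values lay above all later values. Of endothelial-like cells, 180 of 619 were endocardial-like at P4, 0 of 838 at P7, 41 of 535 at P14 and 151 of 813 at P28, and 7 endocardial markers in these sums stood at 434.5 to 557.5 CPM at P4, 96.7 to 144.5 CPM at P7, 36.4 to 507 CPM at P14 and 494 to 1482 CPM at P28. The part of that mix in the Nrg1 levels was not tested. The log2 change from P4 to P28 was -2.27 ± 1.24 (SE) and did not pass the test (edgeR quasi-likelihood test, Benjamini-Hochberg adjusted p = 0.47 over all genes). No endothelial-like sum had more than 3 cells with a Nrg1 UMI in wild-type hearts, and in P4 replicate 1 a single cell gave 38 of 42 UMIs.

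Within endothelial-like cells, Nrg1 UMIs were found in the endocardial-like clusters, which had Npr3 and Cytl1 among their leading genes and were named from markers of the inner lining of the heart chambers. At P4, 131 Nrg1 UMIs came from 6 of 180 endocardial-like cells and 0 from 439 other endothelial-like cells, which allows a share of cells with a UMI of up to 0.683%. At P14 the counts were 22 UMIs in 2 of 38 cells against 0 in 494, which allows up to 0.607%, and at P28 16 UMIs in 7 of 144 cells against 0 in 651, which allows up to 0.461%. These limits are for cells with a UMI, not for cells that express the gene. In the 6 samples with at least 20 cells of both kinds, endocardial-like cells held 23.4 and 32.7 CPM at P4, 25.8 CPM at P14 (replicate 1) and 1.5, 6.05 and 14.4 CPM at P28 (replicates 2, 4 and 6), and the other endothelial-like cells were at 0 in all 6. The mean was 17.3 ± 12.1 CPM (SD, n = 6) against 0, higher in 6 of 6 samples, with p = 0.03125 in an exact two-sided paired permutation test, the smallest p that 6 pairs allow. Adjusted over the 6 genes compared in this way the p was 0.1875, and the comparison was chosen after these values were seen. A count of 0 allows 3 UMIs, which is 0.487 to 1.71 CPM in the other endothelial-like cells of these samples, and the 1.5 CPM of P28 replicate 2 was 1 UMI. The P4 chips carry the same animal names, so the 6 samples may not all be independent. In P4 replicate 1 and P14 replicate 1 a single cell gave 38 of 42 and 21 of 22 UMIs.

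**Figure D2:**
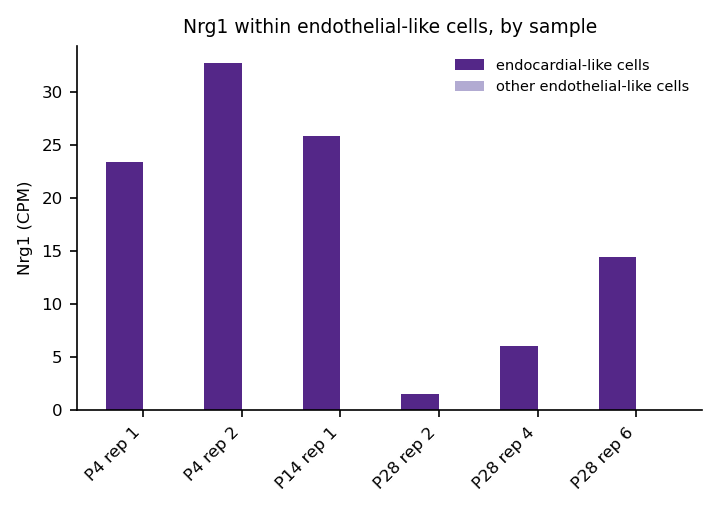
Nrg1 in CPM in endocardial-like cells (dark bars) and other endothelial-like cells (light bars) of the 6 wild-type samples with at least 20 cells of each kind. Dark bars run from 1.5 to 32.7 CPM and all light bars are at 0.

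At P7 no endocardial-like cluster separated, and the 65 Nrg1 UMIs of endothelial-like cells came from 5 of 838 cells. Over all wild-type endothelial-like cells, a Nrg1 UMI was present in 19 of 424 cells with a UMI of Npr3, the natriuretic peptide clearance receptor (4.48%, 95% exact interval 2.72% to 6.91%), and in 2 of 2381 cells without (0.084%, 0.010% to 0.303%). These intervals cover counting error only. At P7 alone, 18 Nrg1 UMIs came from 3 of 51 cells with a Npr3 UMI, and 47 from 2 of 787 cells without. Of those 47 UMIs, 46 came from 1 cell of P7 replicate 2, so at P7 most Nrg1 UMIs lay in cells without a Npr3 UMI. Cells with a Npr3 UMI were also deeper (median 14600 against 11334 UMIs per cell), and more of them held a UMI of Egfr (6.13% against 3.07%) and of Erbb2 (4.25% against 2.35%), while Erbb4 stood at 2.12% against 2.86% and Erbb3 at 0.472% against 0.882%. The part of depth in the Nrg1 split was not tested. In hairpin-injected hearts, 129 UMIs came from 3 of 30 endocardial-like cells and 1 UMI from 322 other endothelial-like cells of animal shNT_1, whereas in shJun_2 10 UMIs came from 2 of 34 and 18 UMIs from 1 of 242 cells. Split by Npr3, the cells with a Nrg1 UMI were 3 of 127 against 1 of 320 cells for shNT and 2 of 146 against 1 of 385 cells for shJun hearts. The other 5 genes gave adjusted p-values from 0.3125 to 0.9688 in the same paired comparison, with Hbegf at 60.1 ± 59.1 CPM in endocardial-like and 22.7 ± 8.59 CPM in other endothelial-like cells.

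Hbegf was found in all main classes. CM-like sums held 55.6 and 25.8 CPM at P4, 53.7 CPM at P7, 19.7 and 19.0 CPM at P14 and 51.3, 34.4 and 141 CPM at P28 (replicates 1, 3 and 5), so that the P4 and P28 values overlapped and P14 was lowest. The log2 change from P4 to P28 was 1.16 ± 0.55 (adjusted p = 0.27) and that from P14 to P28, within the same digestion, 1.53 ± 0.57 (adjusted p = 0.42). Counting cells with a UMI in place of UMIs, an alternative chosen after the data were seen, gave a log2 change of 1.8 from P4 to P28 with an adjusted p of 0.00017. In that fit the counts were scaled to those of all genes in each sum. The 1.8 is therefore not the change of the share of cells, and its p does not test that share. The shares themselves were 10.4% and 12.0% of CM-like cells at P4, 3.98% and 4.61% at P14 and 11.7%, 21.9% and 19.9% at P28. Among cells with at least 3000 UMIs, each thinned to 3000, they were 4.95% and 4.51%, 1.75% and 1.43%, and 6.94%, 7% and 15.3%. All thinned shares given here leave out cells under 3000 UMIs, so they rest on other sets of cells than the full shares.

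In fibroblast-like cells Hbegf ran the other way by the same alternative, scaled in the same way. The log2 change from P4 to P28 was -1.40 (adjusted p = 0.045 for cells with a UMI), whereas the UMI sums gave -0.95 ± 1.02 (adjusted p = 0.83). The levels were 18.2 and 35.7 CPM at P4, 58.3 and 67.8 CPM at P7, 1.33 and 50.2 CPM at P14 and 1.46, 12.0 and 24.5 CPM at P28 (replicates 2, 4 and 6), and these overlap. Endothelial-like sums stayed between 20.1 and 57.9 CPM except at P14, with 13.8 and 2.17 CPM. Mural-like cells gave 287 and 49.1 CPM at P4 and 90.7 and 192 CPM at P7, the highest Hbegf mean of any class (124 ± 115 CPM, n = 5), and the P14 sum of 20 cells was at 0.

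**Figure D3:**
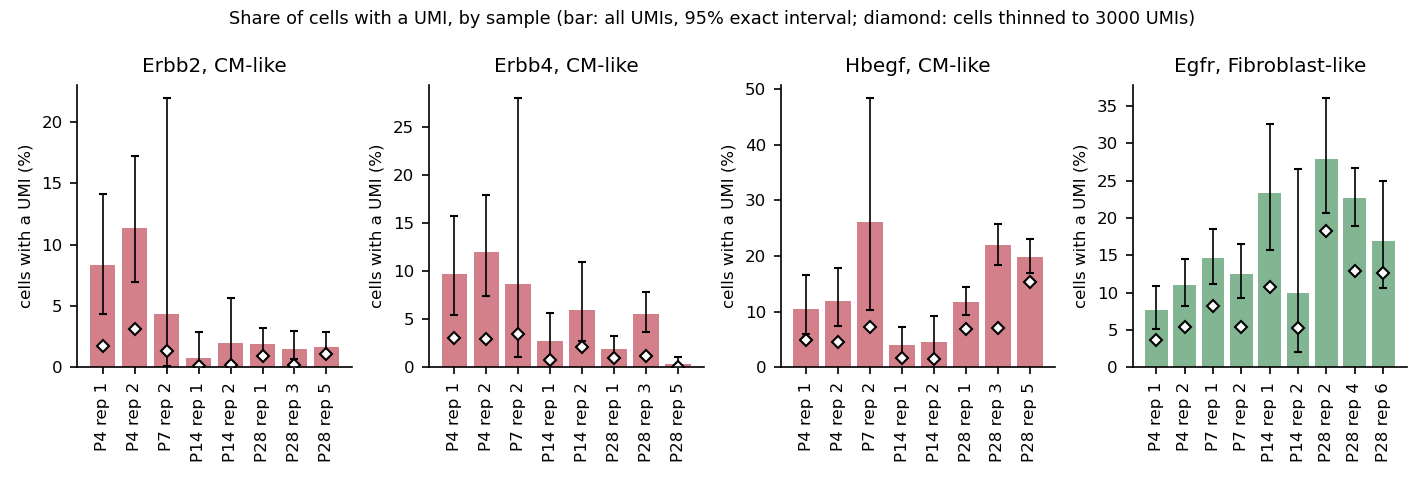
Share of cells with at least 1 UMI, in percent, for Erbb2, Erbb4 and Hbegf in CM-like cells and Egfr in fibroblast-like cells, with 1 bar for each wild-type sample and 95% exact binomial intervals. Diamonds give the share among cells with at least 3000 UMIs, each thinned to 3000 UMIs. The Erbb2 bars are 8.33% and 11.4% at P4 and at most 1.97% at P14 and P28, and the 3 Egfr bars at P28 are all above those at P4.

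Among the receptors, Erbb2, the shared signalling partner, stood lower at P28 than at P4 in CM-like cells, narrowly past the test. It stood at 14.6 and 29.2 CPM at P4, 23.6 CPM at P7, 0.540 and 2.33 CPM at P14 and 3.76, 0.757 and 2.95 CPM at P28 (replicates 1, 3 and 5), and the P4 and P28 values did not overlap. The log2 change from P4 to P28 was -2.98 ± 0.82 (adjusted p = 0.049). Of CM-like cells 8.33% and 11.4% had an Erbb2 UMI at P4, 0.797% and 1.97% at P14 and 1.91%, 1.52% and 1.63% at P28. Among cells with at least 3000 UMIs, each thinned to 3000, the shares were 1.70% and 3.11% at P4 and 0.931%, 0.209% and 1.10% at P28, still without overlap.

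The kinds of CM-like cell also differed between these stages. At P4 the cluster with atrial leading genes held 16.5 and 8.37 CPM of Erbb2, and the other CM-like cells held 9.27 and 123 CPM. The 123 CPM of P4 replicate 2 came from 212 UMIs in 53 cells, and a single cell gave 175 of them. Without the atrial-led cluster, where that cell weighs more, the log2 change was -4.28 (adjusted p = 0.030). Without the 2 clusters of P28 led by genes of other cells the log2 change was -2.81 and missed the threshold (adjusted p = 0.066), with 3.89, 0.846 and 3.2 CPM at P28. Macrophage, fibroblast and erythroid markers in the CM-like sums were all higher at P28 than at P4, and their part in the Erbb2 change was not tested.

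This Erbb2 result rests on few cells. A single cell gave 67.9% of the UMIs in P4 replicate 1 and 175 of 277 in P4 replicate 2, and without that cell the levels were 4.69 and 10.8 CPM, against 2.86, 0.540 and 2.36 CPM at P28 without the top cell of each sum. The P7 value was 1 cell of 23. The call was lost when any P4 or P28 sample was left out (adjusted p = 0.10 to 0.36, log2 change -3.4 to -2.2), when P7 replicate 2 was left out (0.066), and with cells thinned to at most 5000 UMIs (log2 change -1.32, adjusted p = 0.60). From P4 to P14 the log2 change was -3.41 ± 1.03 (adjusted p = 0.079), and within 1 digestion method it was 0.01 ± 1.09 from P4 to P7 and 0.43 ± 0.95 from P14 to P28 (adjusted p = 1 and 0.92).

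Egfr, the EGF receptor, gave almost no UMIs in CM-like cells at P4. CM-like sums held 2 UMIs and 0 UMIs at P4 (0.347 and 0 CPM), 1.63 CPM at P7, 3.24 and 1.16 CPM at P14 and 2.56, 2.81 and 18.1 CPM at P28, so all P28 values were above both P4 values. The fit gave a log2 change of 5.77 ± 1.52 (adjusted p = 0.040), but P4 is at or under the limit of 3 UMIs, so that the size depends on the fit and Egfr entered the test only through its later sums. The call is therefore no support for a change. The 94 cells led by Pdgfrb and Col8a1 held 9 of the 17 UMIs of P28 replicate 1, 21 of the 52 of replicate 3 and 74 of the 92 of replicate 5. Without those cells and the 97 led by immune genes, the P28 sums held 1.41, 1.87 and 3.84 CPM, and the log2 change was 4.12 (adjusted p = 0.17). Without the atrial-led cluster of P4 it was 4.99 (adjusted p = 0.12). Of the 92 UMIs in P28 replicate 5, 51 came from 1 cell, and the call was lost without any 1 of the P4 or P28 samples (adjusted p = 0.057 to 0.25). In the same sums the 8 fibroblast markers, all of them detected, summed to 329 to 382 CPM at P4 and 557 to 1500 CPM at P28, and 8 macrophage markers to 10.2 to 12.6 and 128 to 349 CPM. The fibroblast-like sums of P28 held 89.7 to 210 CPM of Egfr and 19350 to 31350 CPM of those fibroblast markers. The part of other cell types in the Egfr change of CM-like cells was not tested.

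The fit called 2 of the 5 genes tested in CM-like cells between P4 and P28, where 3.82% of 15780 genes passed, 2.21% higher and 1.61% lower at P28. Neither call held without the 2 clusters of P28 led by genes of other cells, where 3.51% of genes passed. Nrg1 was below the count filter there.

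Erbb4, the neuregulin receptor with full kinase activity, had its highest mean over wild-type sums in CM-like cells and no change with stage that passed there. In P14 replicate 1, however, endothelial-like and mural-like sums held 3.85 and 4.63 CPM of Erbb4, against 2.97 CPM in CM-like cells. In the other samples with CM-like and any endothelial-like, fibroblast-like, macrophage-like or mural-like sums, the CM-like level was higher. In CM-like sums it stood at 18.2 and 7.17 CPM at P4, 16.3 CPM at P7, 2.97 and 26.0 CPM at P14 and 5.86, 6 and 0.394 CPM at P28. Both P4 values lay above the 3 P28 values, but the log2 change of -1.24 ± 0.92 did not pass (adjusted p = 0.51), nor did the -2.02 ± 0.93 from P14 to P28 (adjusted p = 0.53). The 0.394 CPM of P28 replicate 5 was 2 UMIs, under the limit of 3. Without the atrial-led cluster the P4 sums held 53.0 and 14.0 CPM of Erbb4, and the part of that mix in its levels was not tested. Shares of CM-like cells with an Erbb4 UMI were 9.72% and 12.0% at P4 and 1.91%, 5.52% and 0.297% at P28, and 3.08% and 2.92% against 0.977%, 1.16% and 0.0801% after thinning.

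Erbb3, which binds neuregulin but has little kinase activity of its own, gave few UMIs. CM-like sums held 2.43 and 1.06 CPM at P4, 0.813 CPM at P7, 2.16 and 10.5 CPM at P14 and 5.11, 0.811 and 4.33 CPM at P28, which overlap (log2 change 1.20 ± 1.07, adjusted p = 0.59). Endothelial-like and fibroblast-like sums stayed at or below 1.67 CPM, and macrophage-like sums at or below 5.16 CPM except P4 replicate 1, whose 19.4 CPM was 17 UMIs, 16 of them from 1 cell. In Schwann cells, where Erbb3 is known to be needed, it could not be followed, since at most 6 cells per wild-type stage had at least 3 Schwann markers.

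Receptor pairs were looked for in single CM-like cells. At P4, 31 of 311 cells had an Erbb2 UMI and 34 an Erbb4 UMI, and 6 had both, where the product of the shares gives 3.39 cells. At P28, 1 of 1890 cells had both (32 and 45 cells with each), and the product gives 0.762. Deep cells hold more UMIs of any gene, so these counts are a description only.

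**Figure D4:**
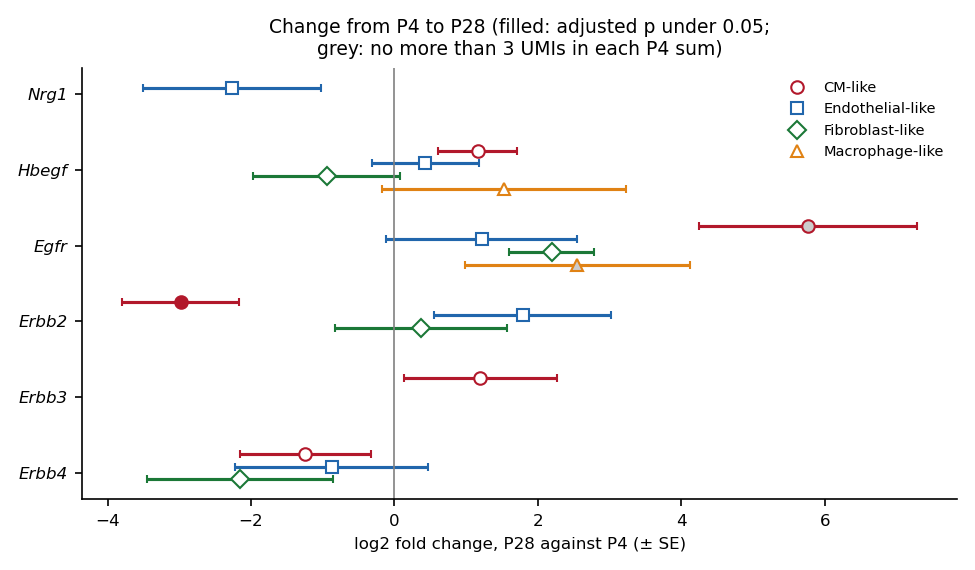
Log2 fold change from P4 to P28 with its standard error for each gene tested in each class, with filled symbols for an adjusted p under 0.05 and grey symbols for genes with no more than 3 UMIs in each P4 sum. Erbb2 in CM-like cells (-2.98) is filled, Egfr in CM-like cells (5.77) is grey, and Egfr in fibroblast-like cells (2.19) is open.

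Egfr had its highest level of any main class in fibroblast-like cells. It stood at 22.4 and 42.8 CPM at P4, 66.5 and 28.4 CPM at P7, 115 and 93.6 CPM at P14 and 210, 89.7 and 124 CPM at P28 (replicates 2, 4 and 6), and all P14 and P28 values were above all P4 and P7 values. The log2 change from P4 to P28 was 2.19 ± 0.59 and missed the threshold (adjusted p = 0.058), and that from P4 to P14 was 2.14 ± 0.62 (adjusted p = 0.10). From P4 to P7 it was 0.64 ± 0.60 and from P14 to P28 0.05 ± 0.55, each within 1 digestion method. DESeq2 called the change from P4 to P28 (adjusted p = 0.0065), and so did the fit without a count filter (0.039), the fit of P4 and P28 alone (0.038) and the count of cells with a UMI (0.00054). That count was scaled to those of all genes, so it is not a test of the share of cells. Leaving out P4 replicate 1 gave 1.74 with an adjusted p of 0.58.

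The share of fibroblast-like cells with an Egfr UMI stood at 7.65% and 11.1% in the P4 sums, at 14.6% and 12.5% in the P7 sums, at 23.4% and 10% in those of P14 and at 27.9%, 22.6% and 16.9% in those of P28. Among cells with at least 3000 UMIs, each thinned to 3000, it was 3.66% and 5.4% at P4 and 18.2%, 12.9% and 12.6% at P28. No single cell gave more than 27.5% of the UMIs of a P28 sum, whereas in the P14 sum of 30 cells 1 cell gave 85.7%. Fibroblast markers in these sums ran from 14370 to 15260 CPM at P4 and from 19350 to 31350 CPM at P28, and CM markers from 8589 to 11210 CPM at P4 and from 586 to 752 CPM at P28. Their part in the Egfr values was not tested.

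Outside CM-like cells, edgeR called no change of the 6 genes between P4 and P28. In fibroblast-like cells 0 of 4 genes tested were called (1 at an unadjusted p under 0.05, Egfr), where 2.48% of all genes were. In endothelial-like cells it was 0 of 5 (0 unadjusted and 0 with DESeq2) against 1.01%, and in macrophage-like cells 0 of 2 (0 and 0) against 0.178%. Log2 changes in endothelial-like cells were 1.79 ± 1.23 for Erbb2, 1.21 ± 1.33 for Egfr, 0.43 ± 0.74 for Hbegf and -0.88 ± 1.34 for Erbb4. Without endocardial-like cells, which also leaves out the sum of P28 replicate 1, that of Erbb2 was -0.06 (adjusted p = 0.99). Macrophage-like sums of 33 to 377 cells held at most 154.9 CPM of Hbegf and 103 CPM of Egfr, each from a sum in which 1 cell gave over 96% of the UMIs.

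Whether the changes differ between classes was tested directly, as the difference of the P28 against P4 change between each pair of classes. This fit held class and stage but not sample, so sums of different classes from 1 chip were treated as independent. No gene of the 6 passed in any of the 6 pairs (0 of 36 tests with edgeR and 0 with DESeq2, 5 and 8 at an unadjusted p under 0.05), and edgeR called 0.0% of 19772 genes in each pair (887 to 1990 genes at an unadjusted p under 0.05, and 6 to 239 called by DESeq2). The Erbb2 change was larger in endothelial-like than in CM-like cells by 4.65 ± 1.94 on the log2 scale (adjusted p = 0.83), and by 3.62 without P28 replicate 1, whose endothelial-like Erbb2 UMIs came from 1 cell. The lower Erbb2 level was not shown to be particular to CM-like cells. The Egfr change differed by -3.57 ± 1.85 between fibroblast-like and CM-like cells (adjusted p = 0.80).

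Classes were then compared over all 37 wild-type sums, with sample as a block in the fit. The block also takes up stage, and each class difference was taken as the same at all stages. Of 24 tests (4 genes that passed the count filter, 6 pairs of classes) 7 passed, where between 11.7% and 26.9% of genes did in each pair. Erbb4 was higher in CM-like cells (10.4 ± 8.82 CPM, SD, n = 8) than in endothelial-like (1.97 ± 1.87 CPM, n = 10; log2 difference -2.95 ± 0.75, adjusted p = 0.0046), fibroblast-like (1.43 ± 1.30 CPM, n = 9; -3.52 ± 0.78, adjusted p = 0.0012) and macrophage-like cells (0.842 ± 0.982 CPM, n = 10; -4.33 ± 0.84, adjusted p = 0.00022). The background was 21.0% of genes for endothelial-like against CM-like cells, 20.3% for fibroblast-like and 26.9% for macrophage-like against CM-like cells.

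Egfr was higher in fibroblast-like cells (88.1 ± 58.5 CPM, n = 9) than in CM-like (3.73 ± 5.92 CPM; log2 difference 5.50 ± 0.98, adjusted p = 9.5e-05), endothelial-like (8.33 ± 8.54 CPM; 3.67 ± 0.65, adjusted p = 0.00019) and macrophage-like cells (14.6 ± 31.4 CPM; -3.62 ± 0.70 for macrophage-like against fibroblast-like, adjusted p = 0.00026). These 3 calls held under all 23 alternatives, as did the sign. Among the other 3 classes no Egfr difference passed (adjusted p = 0.12 to 0.98). The background was 11.7% for fibroblast-like against endothelial-like, 20% for macrophage-like against fibroblast-like and 16.9% for macrophage-like against endothelial-like cells.

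Hbegf was lower in macrophage-like (22.4 ± 47.5 CPM, of which 154.9 CPM in 1 sum) than in CM-like cells (50.1 ± 39.8 CPM), with a log2 difference of -2.58 ± 0.88 (adjusted p = 0.029, lost in 5 of 23 alternatives), and no Hbegf difference passed among CM-like, endothelial-like (28.4 ± 15 CPM) and fibroblast-like cells (29.9 ± 24.5 CPM). Macrophage-like against endothelial-like and against fibroblast-like cells did not pass for Hbegf, but were called in 4 and 3 of 23 alternatives. Erbb2 passed in no pair (adjusted p = 0.077 to 0.97), at 9.72 ± 11.3 CPM in CM-like, 11.1 ± 18.9 CPM in endothelial-like, 8.81 ± 8.62 CPM in fibroblast-like and 2.38 ± 4.31 CPM in macrophage-like sums. Macrophage-like against CM-like cells was called for Erbb2 in 6 of 23 alternatives (lowest adjusted p = 0.019, and 0.041 with endocardial-like cells left out). Macrophage-like against fibroblast-like cells was called in 1 (adjusted p = 0.047). Erbb3 and Nrg1 were below the count filter. At P28 the CM-like cells sat on other chips than most other cells, so class and chip cannot be told apart at that stage.

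Among 16160 genes with at least 1 CPM on average, those whose log2(CPM + 1) over the 37 wild-type sums was most like that of Egfr were Lrrn4cl, Col6a3 and Fibin (Pearson r = 0.835, 0.831 and 0.82). For Nrg1 they were Comp, Smoc1 and Sprr2b (0.78, 0.75 and 0.74), of which Smoc1 was also in the endocardial marker list. For Erbb4 they were Plekhh1, Ucp3 and Slc25a13 (0.80, 0.79 and 0.77), and for Erbb3 Sdhc, Atp5l and Slc25a42 (0.70, 0.67 and 0.67). For Erbb2 they were Gspt1, Spsb4 and Hdac4 (0.70, 0.69 and 0.69), and for Hbegf Ralgapa2, Polr2m and Ubac1 (0.74, 0.70 and 0.70). The sums share samples and depth, so r is given as a description only.

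The rest of the pathway was followed with gene lists. Of 13 division genes, 10 fell in CM-like cells from P4 to P28 (median log2 change -3.43, against 0.02 over all genes, of which 1.61% fell), among them Birc5 (-4.05 ± 0.63), Top2a (-3.37 ± 0.58) and Ccnb2 (-4.57 ± 0.92), which act in chromosome segregation, DNA untangling and mitotic entry. In endothelial-like cells 7 of 13 fell, where 0.529% of all genes did, with Top2a (-3.79 ± 0.45), Ccnb2 (-5.44 ± 0.84) and Cenpf (-3.76 ± 0.70), and in fibroblast-like cells 8 of 13, where 1.49% of all genes did, with Mki67 (-4.32 ± 0.51), Top2a (-3.79 ± 0.59) and Cenpf (-4.76 ± 0.88). In macrophage-like cells 0 of 13 passed, and 0 at an unadjusted p under 0.05. Top2a in CM-like sums was 109 and 132 CPM at P4, 121 CPM at P7, 4.86 and 4.26 CPM at P14 and 18.6, 7.57 and 3.15 CPM at P28, and like Erbb2 it lay lower in all 5 sums of P14 and P28 than in the 3 sums before.

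Of 12 feedback inhibitors of the receptors and their kinase cascade, Errfi1, which binds and blocks the EGFR kinase domain, was the only member past the threshold in CM-like (1 of 12, where 3.82% of all genes passed) and in fibroblast-like cells (1 of 12, where 2.48% did). CM-like sums held 0.347 and 5.17 CPM of Errfi1 at P4 and 30.7, 22.1 and 33.8 CPM at P28 (log2 change 3.51 ± 0.90, adjusted p = 0.036). The 0.347 CPM of P4 replicate 1 lay under the limit of 3 UMIs, so the size of that change depends on the fit. Fibroblast-like sums held 16.1 and 11.3 CPM at P4, 19.1 and 15.4 CPM at P7, 259 and 171 CPM at P14 and 193, 201 and 180 CPM at P28 (3.94 ± 0.54, adjusted p = 0.00025). The fibroblast-like values split between P7 and P14, where the digestion changed, with no overlap. The CM-like change from P4 to P28 spans the same change of digestion and cannot be told apart from it.

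Among 8 downstream immediate early and growth genes, Egr1 and Fos, transcription factors induced within minutes of stimulation, rose in CM-like cells (3.83 ± 0.64 and 3.08 ± 0.55), and Ccnd2, a G1 cyclin, fell (-1.81 ± 0.43), 3 of 7 tested where 3.82% of all genes passed. Egr1 also rose in endothelial-like (2.45 ± 0.50, 1 of 8, where 1.01% of all genes passed) and fibroblast-like cells (1.63 ± 0.40, 1 of 8, where 2.48% did), and 0 of 7 passed in macrophage-like cells. The digestion changed between P7 and P14, so these changes cannot be told apart from it. In CM-like cells the median log2 change of this list was 1.65 from P4 to P14 (all genes -0.08). Within the same digestion, from P14 to P28, it was -0.05 (all genes 0.11). None of the other ErbB ligands (9 listed, 1 to 3 tested), of the 7 genes of ligand shedding and transport or of the 27 adaptors and kinases passed between P4 and P28 in any of the 4 classes. At an unadjusted p under 0.05 these 3 lists gave 0, 1 and 1 genes in CM-like, 0, 2 and 2 in endothelial-like, 0, 0 and 3 in fibroblast-like and 0, 0 and 0 in macrophage-like cells.

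The hairpin-injected hearts, read at P28, gave a further set of levels and a comparison of shJun with shNT, each with 2 labelled animals. Jun, a subunit of AP-1, was 53.7 and 65.7 CPM in CM-like cells of shNT and 25.7 and 31.6 CPM of shJun hearts, without overlap (log2 change -1.15 ± 0.23, unadjusted p = 0.0021 by edgeR, adjusted p = 0.999 over all genes, 0.013 with DESeq2). With the chip set that same-numbered animals shared as a replicate block, the adjusted p of Jun was 0.066, and 38 genes were called in CM-like cells, none of them among the 6. In the other classes the log2 change of Jun was -0.28 ± 0.57 (endothelial-like), 0.84 ± 0.50 (fibroblast-like) and -0.44 ± 0.76 (macrophage-like), none of which passed.

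None of the 6 genes changed with the hairpin in a way that passed the test (0 of 22 tests by edgeR and by DESeq2, 1 and 0 at an unadjusted p under 0.05), where edgeR called 0.0% of genes in each class (575 to 770 genes at an unadjusted p under 0.05, and 52 to 124 called by DESeq2). In CM-like cells Erbb4 stood at 11.9 and 5.85 CPM in shNT and 8.13 and 10.4 CPM in shJun, and Erbb2 at 5.54 and 3.08 CPM and 5.97 and 4.005 CPM. Hbegf was 121 and 51.1 CPM in shNT and 107.5 and 69.6 CPM in shJun hearts, and Egfr 2.07 and 10.8 CPM and 2.84 and 7.95 CPM. All of these overlap. The log2 changes were -0.02 ± 0.41 for Erbb4, 0.13 ± 0.48 for Erbb2, 0.18 ± 0.47 for Erbb3, -0.03 ± 0.42 for Hbegf and -0.35 ± 0.84 for Egfr.

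**Figure D5:**
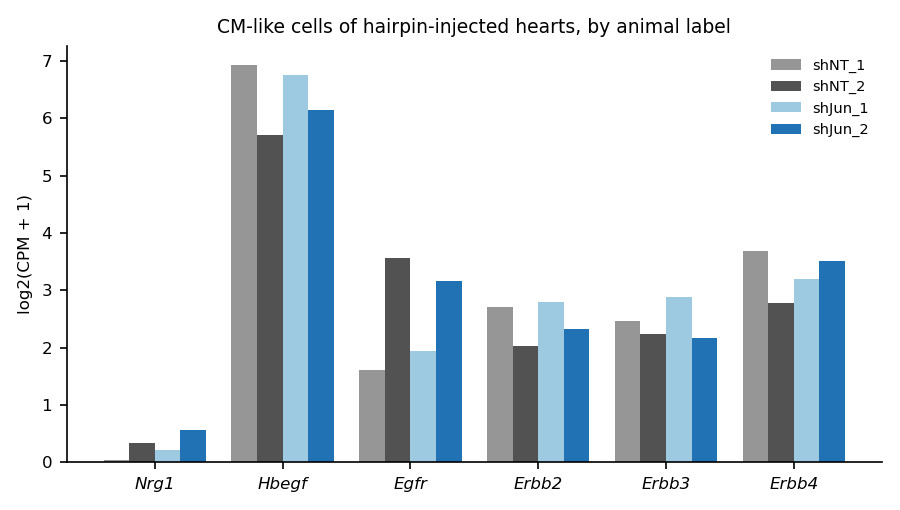
Level as log2(CPM + 1) of each gene in CM-like cells of the 4 labelled animals of the hairpin chips, grey for shNT and blue for shJun. The grey and blue bars overlap in all 6 genes.

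In these deeper hairpin libraries Egfr was again highest in fibroblast-like cells among the 4 main classes, at 49.5 and 210.5 CPM in shNT and 123 and 84.0 CPM in shJun hearts, with 26.9% to 35.0% of cells holding a UMI. In macrophage-like cells Erbb4 had the 1 unadjusted p under 0.05 (log2 change 3.36 ± 1.36, adjusted p = 0.999 by edgeR), on 0.225 and 0.532 CPM against 3.02 and 5.39 CPM, of which single cells gave 100% and 84% in the shJun sums. Myh6 in the macrophage-like sums of these hearts stood at 25.0% and 53.7% of the CM-like level of the same animal in shNT and 27.7% and 61.3% in shJun, and over endothelial-like, fibroblast-like and macrophage-like sums of the 4 animals at 3.17% to 61.3%, and its part in these values was not tested.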

How the data were processed

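The authors trimmed reads (cutadapt), removed foreign sequence, aligned to mm10 with STAR 2.5.2b, counted genes with featureCounts of Subread 1.4.6-p1 and collapsed UMIs, and deposited 1 table of raw UMI counts per chip with a well report naming animal, fraction or hairpin. Wells with at least 500 genes and log10 UMIs within 2 SD were kept, without mitochondrial genes, and control wells were left out. No doublet caller was run. Cells were clustered per stage (10 components, 30 neighbours, Leiden, the 6 genes left out) and named from marker lists, and UMIs were summed per class and sample (at least 20 cells). Sums were tested with edgeR 4.0.16 (TMM, filterByExpr, quasi-likelihood, R 4.3.3), 1 fit per class over all stages, adjusted over all genes, with 0.05 as threshold. DESeq2 1.42.0, other filters, thinning and left-out samples were alternatives. The 6 genes and all lists were chosen with earlier results of these data known. From each list the text names up to 3 genes with the smallest p per direction and class. P-values measure the spread between samples, which may be technical where chips share animals. In the hairpin hearts animals with the same number shared chips, which pairs them. Gene symbols and positions are from GENCODE vM21, and 34891 of 35843 identifiers had a symbol.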

Additional observations from a re-analysis of the deposited data

Results flagged for a closer look

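Of 12 groups of 4 P28 sums tested per gene and class, 5 held a sample far from the other 3 by Dixon's test. For normally distributed values chance does so in about 1 group in 20. These sparse levels can rest on 1 cell and need not follow that rate, so the count is a description only. Erbb2 stood at 64.03 CPM in the endothelial-like sum of P28 replicate 1, against 3.18 to 11.3 CPM in replicates 2, 4 and 6. That sum holds 35 cells of a CM chip, and all 35 Erbb2 UMIs came from 1 cell. Hbegf stood at 154.9 CPM and Erbb3 at 5.162 CPM in the macrophage-like sum of the same chip (37 cells), against 1.59 to 11.6 CPM and 0 to 0.150 CPM, and 1 cell gave every UMI in both. Hbegf was 57.89 CPM in the endothelial-like sum of P28 replicate 2, against 29.3 to 30.9 CPM, with 60% of UMIs from 1 cell. Egfr was 15.33 CPM in the macrophage-like sum of P28 replicate 4, against 5.16 to 6.37 CPM, and there 34 of 377 cells held a UMI.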

How the results depend on the processing

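Both CM-like calls from P4 to P28 (2 genes) depended on the processing. The count was 1 with classes called cell by cell (Egfr) and 0 with sums of at least 10 cells, with at least 1000 genes per cell, with cells thinned to at most 5000 UMIs and with cells holding markers of another class left out. Chosen after the data were seen, it was 1 (Erbb2) without the atrial-led cluster of P4 and 0 without the 2 clusters of P28 led by genes of other cells. It was 2 with DESeq2, without a count filter, per named animal and with P4 and P28 alone, and also with cells holding a UMI counted in place of UMIs, where the genes were Egfr and Hbegf in place of Erbb2. Leaving out 1 sample gave 0 to 2 in CM-like, 0 to 1 in fibroblast-like, 0 to 0 in endothelial-like and macrophage-like cells. The sign of both changes held in all 19 alternatives that gave a value. The fibroblast-like count of 0 became 1 (Egfr) with DESeq2, without a count filter and with P4 and P28 alone, and 2 (Egfr, Hbegf) with cells holding a UMI. Between classes the 7 calls became 13 with DESeq2, 14 without a count filter, 3 with cells thinned to at most 5000 UMIs, 12 with cells holding a UMI, 4 per named animal, 8 without endocardial-like cells and 6 to 8 with 1 sample left out. Erbb4 gave no value in the thinned and per-animal fits, since it was below the count filter. The class difference of the changes gave 0 calls except 1 (Hbegf, fibroblast-like against CM-like) with cells holding a UMI, and 0 with 1 sample left out. Cells holding a UMI were chosen as an alternative after the data were seen, together with no count filter. Their counts were scaled to those of all genes in each sum, so these calls are not tests of the share of cells.

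The Jun change in CM-like cells of hairpin hearts was -1.17 (adjusted p = 0.013) with DESeq2 and -1.17 (0.0039) without a count filter, and -1.33 to -0.98 with 1 animal left out. With the chip set as replicate block it was -1.15 (adjusted p = 0.066), and 0 of the 6 genes were called, as without the block. Leaving out 1 animal gave 0 to 0 calls among the 6 genes. No paired analysis was possible for the stages because no sample number is shared by animals of different ages. Leaving out cells with at least 3 markers of another class removed 72.6% of CM-like and 91.4% to 97.3% of other cells, so that most sums could not be fitted. Depth limits Nrg1 and Erbb3 most, with 325 and 241 UMIs in 12938 wild-type cells. The cause of these differences was not tested.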
